A study of Mus musculus with 6 samples.

Results

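The genes described here are 32 genes that mark the cells of blood vessels, out of 24421 gene symbols listed in each library. They were chosen by name and by known role rather than by a measured value, though earlier results of these data were known. Of them, 22 are endothelial genes and 10 are genes of mural cells, the pericytes and smooth muscle cells that wrap the vessel wall. The measurements are 6 bulk RNA-seq libraries, each from the olfactory bulb (OB) of 1 mouse. The 3 control libraries (genotype label WT) came from C57BL/6J mice, and the 3 Sox9 KO libraries came from Sox9fl/fl mice, in which the Sox9 alleles are flanked by loxP sites. Mice of both groups were adult males, carried the strain label C57BL/6 and had been injected in the OB with AAV-GFAP-iCre-P2a-TurboRFP. This adeno-associated virus drives the recombinase Cre and the red fluorescent protein TurboRFP from the GFAP promoter, which is active in astrocytes. TurboRFP-positive cells were sorted by FACS 4 weeks later, and the labels call them olfactory bulb astrocytes. Both the virus and the sort therefore aimed at astrocytes, and no step selected vessel cells. The level of a vascular gene here is its level in the sorted material, not in the vessels of the bulb.

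Brain endothelial cells line the capillaries and form the blood-brain barrier. They are sealed to each other by tight junctions, carry transporters that move nutrients in and drugs out, and respond to growth factors such as VEGF and angiopoietins through receptor tyrosine kinases. Pericytes share a basement membrane of collagen IV and laminin with the endothelium and depend on PDGF-B signaling through Pdgfrb, while smooth muscle cells of arterioles contract through an actin and myosin apparatus. Astrocyte endfeet cover this wall from the outside, and signals from them help to keep the barrier closed.

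Values are normalized counts, that is, reads on a gene divided by 1 size factor per library. The libraries held between 18242129 and 86906527 reads on genes, so that 1 read was worth between 0.395 (KO 2) and 1.58 (control 3) normalized counts. Sox9, the targeted gene, stood at 5185, 6562 and 4921 normalized counts in the controls and at 52.6, 64.4 and 57.7 in the KO. The astrocyte label was checked against 10 astrocyte markers: their sum lay between 532600 and 596300 normalized counts in the controls and between 38420 and 50160 in the KO, and all 10 fell. The sum of 10 microglial markers lay between 142200 and 168500 in the controls and between 511400 and 627100 in the KO, and all 10 rose. Neuronal, oligodendrocyte and olfactory ensheathing cell markers summed to 0.165, 0.359 and 0.324 times their control level. The KO libraries thus differed from the controls in markers of several cell types at once, and every value below was measured in that setting. In bulk samples, fewer cells of a type and less RNA per cell cannot be told apart.

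All 32 members had a mean of at least 1 normalized count and were tested. The levels were low beside those of astrocyte genes. Cldn5, the claudin of brain endothelial tight junctions, had 65.6 normalized counts per kilobase of transcript in the controls, while the astrocyte gene Aqp4 had 11950. The gap was narrower for other pairs: Vtn, the highest member per kilobase, had 523, and Aldh1l1, the lowest of the 10 astrocyte markers, had 1125. Of the 22 endothelial members, 14 fell, 3 rose and 5 were not called in the KO, where a call needs both a 1.5-fold change and an adjusted p under 0.05 in limma. Of the 10 mural members, 4 fell, 1 rose and 5 were not called. Over all 18413 tested genes, 28.8% were called lower and 22.2% higher. The median log2 fold change, on log2(normalized count + 1), was -1.17 for the endothelial members and -0.63 for the mural members, beside -0.07 for all tested genes. In 18 members every KO library lay below every control library, in 5 every KO library lay above, and in 9 the groups overlapped. The same separation was seen in 34.7% of all tested genes for KO below control and in 32.4% for KO above control.

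**Figure D1:**
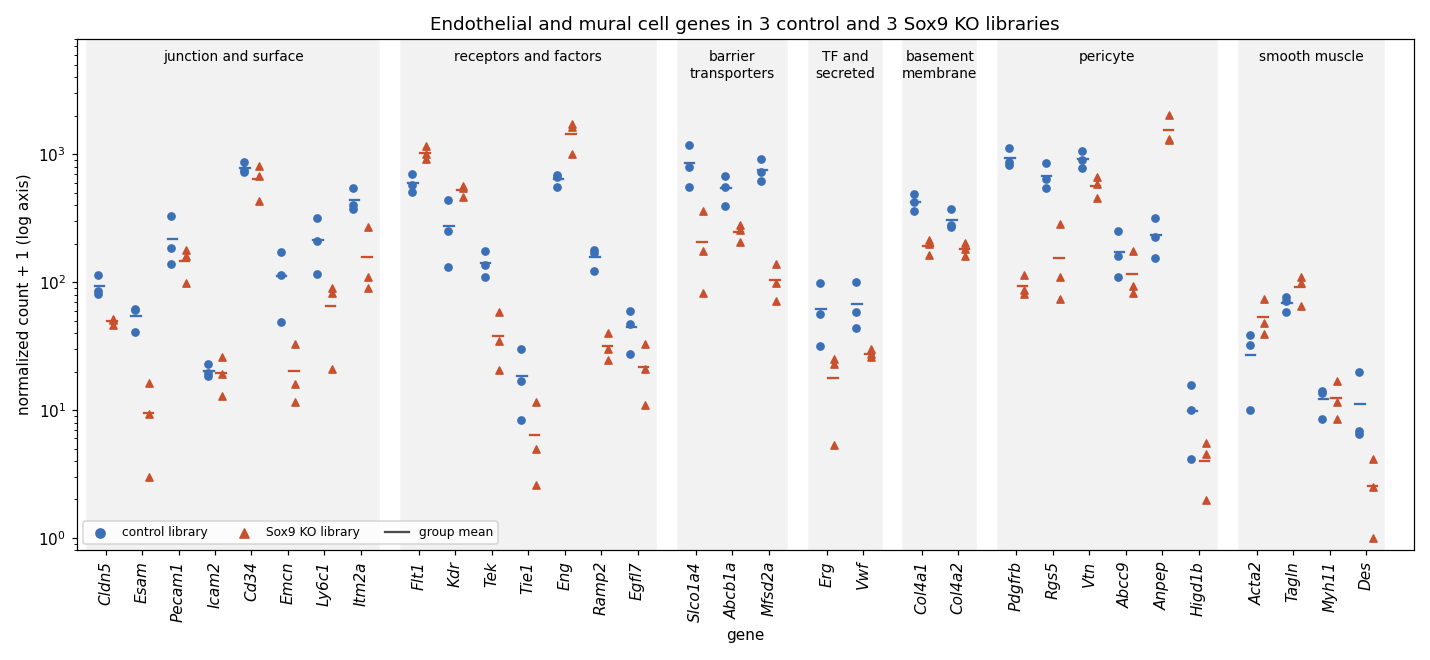
Normalized count + 1 (log axis) of each of the 32 members in the 3 control libraries (circles) and the 3 Sox9 KO libraries (triangles), with short lines at the group means. Most members sit lower in the KO, while Flt1, Kdr, Eng and Anpep sit higher in all 3 KO libraries, and Acta2 sits higher without passing the test.

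The scaling of the libraries moved these values together. With quantile normalization, which gives every library the same distribution of values, the median of all genes shifted by 0.268 on the log2 scale and that of the endothelial members was -0.72, while with every library scaled to the same total the shift was -0.228 and the endothelial median -1.41. The mural median was -0.17 and -0.87 under the same settings. The endothelial median stayed below that of all genes under both, which was 0.20 and -0.29. Among all calls, 56.44% were lower under the deposited scaling, 43.25% with quantile normalization and 67.83% with the same total.

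**Figure D2:**
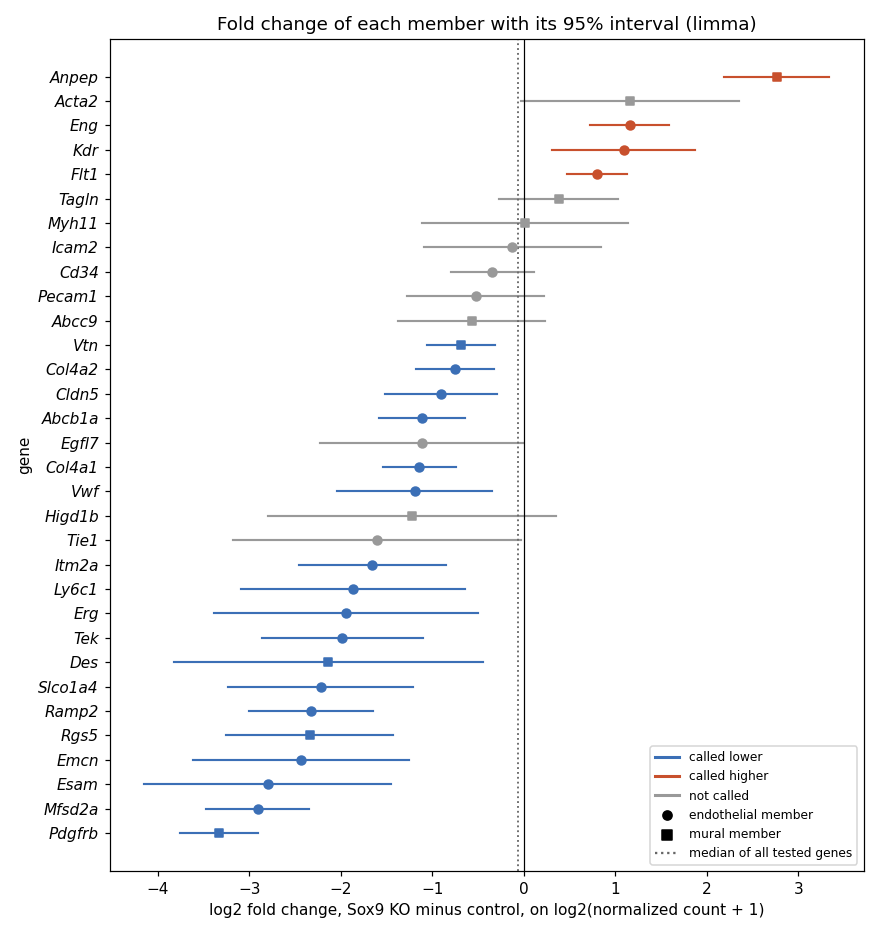
Log2 fold change (KO minus control, on log2(normalized count + 1)) of each member with its 95% interval from limma, with circles for endothelial and squares for mural members and colors for the call. The values run from -3.33 for Pdgfrb to 2.76 for Anpep, and the intervals are widest for members with few reads, such as Des and Tie1.

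The blood-brain barrier transporters fell in the KO, all 3 of them, and the groups did not overlap for any. Their summed level was 2283, 1679 and 2476 normalized counts in the controls, against 452, 474 and 738 in the KO, a ratio of 0.258. Mfsd2a, which carries lysophospholipids with omega-3 fatty acids into the brain and restrains vesicle transport across the endothelium, stood at 926.5, 726.0 and 616.3 normalized counts in the controls and at 70.5, 139.0 and 97.2 in the KO. Each KO library was thus several times below the lowest control, with a log2 fold change of -2.91 ± 0.25 (SE, adjusted p = 3.6e-06). Slco1a4, an organic anion transporter of the barrier, had 800.8, 558.1 and 1185 normalized counts in the controls, against 176, 81.7 and 360.0 in the KO (log2 fold change -2.22 ± 0.45, adjusted p = 0.0016). Its spread within each group was wide, and the highest KO library stayed below the lowest control. Abcb1a, which encodes the drug efflux pump P-glycoprotein, had 555.3, 395.0 and 674.6 normalized counts in the controls, against 206, 253 and 281 in the KO (log2 fold change -1.11 ± 0.21, adjusted p = 0.001). Its close paralog Abcb1b moved the other way, from 624, 605 and 690.4 to 1833, 1924 and 1929 normalized counts (log2 fold change 1.57 ± 0.10, adjusted p = 4.2e-07). Of the 50-base stretches of the Abcb1a transcript, 17.0% also occur in other listed genes, most of them in Abcb1b, so reads from such stretches could be counted for either gene or dropped.

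Among the endothelial junction and surface genes, 5 of 8 fell and none was called higher. Esam and Cldn5 belong to the cell contacts. Cldn5 lay between 80.4 and 113.5 normalized counts in the controls and between 45.6 and 50.5 in the KO, and its log2 fold change was -0.91 ± 0.28 (adjusted p = 0.016). That call was lost with quantile normalization, where the log2 fold change was -0.06, and without control 3 (adjusted p = 0.06). Esam, an adhesion molecule at endothelial tight junctions, ranged from 39.5 to 60.6 normalized counts in the controls and from 1.99 to 15.2 in the KO, where its reads numbered between 2 and 21 (log2 fold change -2.80 ± 0.61, adjusted p = 0.0024).

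The sialomucins of the vessel surface behaved unequally. Emcn, endomucin, a marker of capillaries and veins, ranged from 48.2 to 170 normalized counts in the controls and from 10.7 to 31.9 in the KO (log2 fold change -2.43 ± 0.53, adjusted p = 0.0024). Cd34, which endothelium shares with blood stem cells, had 729.2, 750.8 and 878.0 normalized counts in the controls, against 433, 808 and 672 in the KO. The KO 2 value lay inside the control range, and the log2 fold change was -0.34, with a 95% interval from -0.80 to 0.11 (adjusted p = 0.17). Pecam1, the adhesion molecule CD31, overlapped as well: it had 184, 138 and 328 normalized counts in the controls, against 178, 160.3 and 97.2 in the KO. The interval of its log2 fold change ran from -1.27 to 0.22 around -0.53 (adjusted p = 0.2), and with quantile normalization the value was 0.07. Icam2, an adhesion molecule for leukocytes, was the junction and surface gene with the smallest fold change and had between 12 and 63 reads per library. Its mean was 19.4 ± 2.37 normalized counts in the controls and 18.3 ± 6.48 in the KO (SD, n = 3 in each), with a log2 fold change of -0.13 that turned to 0.67 with quantile normalization and to 0.14 without KO 1 and passed no test.

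Itm2a, a membrane protein abundant in brain endothelium, fell from 403.3, 373.0 and 548.5 normalized counts to 108, 88.8 and 270.4 (log2 fold change -1.66 ± 0.36, adjusted p = 0.0025). The KO 3 library was the highest of the KO group for this gene, as it was for Tek, Emcn, Rgs5 and Slco1a4. Ly6c1, a surface protein of brain capillary endothelium, had 114, 209 and 317 normalized counts in the controls, against 89.4, 20.1 and 82.0 in the KO. The groups came close at the lowest control, and the log2 fold change was -1.86 ± 0.55 (adjusted p = 0.013). This call was lost with quantile normalization (adjusted p = 0.11), without the variance trend (adjusted p = 0.063) and without control 3 (adjusted p = 0.067). Ly6c2, the paralog that marks inflammatory monocytes, had 48.2, 109.4 and 39.4 normalized counts in the controls, against 48.6, 117 and 134 in the KO (log2 fold change 0.62 ± 0.47, adjusted p = 0.28).

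Reads of Ly6c1 and Ly6c2 are hard to separate, and the start of their coding sequences shows why. Over 393 coding bases the 2 genes are identical at 384 (97.71%), and 36.7% of the 50-base stretches of the Ly6c1 transcript also occur in other listed genes. The first 90 coding bases are printed 5′ to 3′ from the GENCODE vM21 transcripts, with the 6 bases at which they differ in capitals.
Ly6c1: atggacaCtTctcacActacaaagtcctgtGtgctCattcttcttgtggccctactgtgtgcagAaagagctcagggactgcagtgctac
Ly6c2: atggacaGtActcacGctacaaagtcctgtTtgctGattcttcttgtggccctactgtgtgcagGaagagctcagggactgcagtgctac
A read that covers none of the differing bases could come from either gene. In the RefSeq annotation of GRCm38.p6, Ly6c1 lies at chr15:75044018-75048920 and Ly6c2 at chr15:75108161-75112066, both on the minus strand. The Ly6c1 transcript shares 252 of its 50-base stretches with Ly6c2 and 40 with Ly6a. The mean of Ly6a was 386 normalized counts in the controls and 3502 in the KO. The value of Ly6c1 is uncertain to the extent of this sharing.

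The receptors and angiogenic factors split: 3 of 7 rose, 2 fell and 2 were not called. Eng, endoglin, a TGF-beta co-receptor of endothelium that macrophages also carry, had 667.8, 551.9 and 687.2 normalized counts in the controls, against 1626, 1728 and 1004 in the KO. All KO libraries lay above all controls, with KO 3 the lowest of them, and the log2 fold change was 1.16 ± 0.19 (adjusted p = 0.00043). Eng lies at chr2:32646595-32682669, and 61 bases of its exons overlap Fpgs on the other strand. Flt1, the VEGF receptor that binds VEGF-A most tightly and that monocytes also carry, rose from 505.6, 575.3 and 695.1 normalized counts to 1162, 922.2 and 998.1 (log2 fold change 0.80 ± 0.15, adjusted p = 0.00076). Its groups were separate and narrow, although the fold change fell below the 1.5-fold limit, at 0.56 on the log2 scale, when every library was scaled to the same total. Kdr, the main signaling receptor for VEGF-A, had 130, 253 and 440 normalized counts in the controls, against 563, 461.5 and 540.8 in the KO (log2 fold change 1.09 ± 0.35, adjusted p = 0.02). The control libraries differed widely from each other for this gene, and the highest came close to the lowest KO library. Its call was lost with the same total (adjusted p = 0.066), without the variance trend (adjusted p = 0.085), without control 2 (adjusted p = 0.054) and without KO 3 (adjusted p = 0.053).

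The other receptors did not follow Flt1, Kdr and Eng. Tek, the angiopoietin receptor Tie2, had 108, 135 and 175 normalized counts in the controls, against 33.8, 19.7 and 57.7 in the KO (log2 fold change -1.98 ± 0.39, adjusted p = 0.0014). Ramp2, the subunit that makes the calcitonin receptor-like receptor respond to adrenomedullin, had 168, 123 and 178 normalized counts in the controls, against 23.8, 39.1 and 28.9 in the KO (log2 fold change -2.32 ± 0.30, adjusted p = 7.2e-05). Both were separate between groups, and no alternative setting that was run ended either call. Tie1, the orphan partner of Tie2, had between 4 and 42 reads in every library and fold changes that did not pass the test (-1.60 ± 0.71 on the log2 scale, adjusted p = 0.073). Egfl7, a secreted factor of endothelium, was similar, with 18 to 67 reads and a log2 fold change of -1.12 ± 0.50 (adjusted p = 0.075). Each of these was called lower with the same total, at adjusted p = 0.049 for Tie1 and 0.041 for Egfl7. Both were also called lower without control 1 and without KO 3.

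The 4 genes that rose, Flt1, Kdr and Eng here and Anpep among the mural members, moved beside the microglial markers, which all rose. Csf1r, the receptor for colony stimulating factor and the most abundant of these markers, went from a mean of 36390 to 145500 normalized counts (log2 fold change 1.99 ± 0.15, adjusted p = 1.2e-06). C1qb, a complement subunit, rose by 2.17 on the log2 scale, and the purinergic receptor P2ry12 by 1.43. Of 10 markers of border macrophages and monocytes, 3 rose and 4 fell, and their sum ran from 15710 to 23260 normalized counts in the controls and from 22780 to 26780 in the KO. Mrc1 rose by 0.70 and Ms4a7 by 1.98 on the log2 scale, while Cd163 fell by 0.67 and F13a1 by 0.79. The part of these cells in the level of the 4 genes was not tested.

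**Figure D3:**
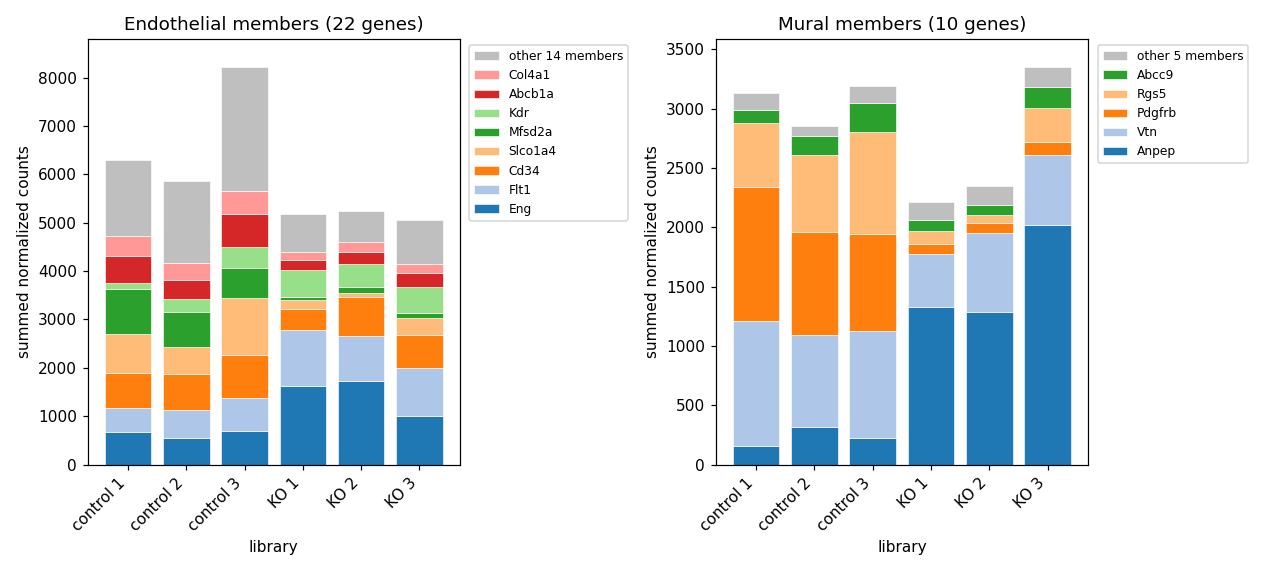
Summed normalized counts of the 22 endothelial members and of the 10 mural members in each library, stacked by the most abundant members, with the rest in gray. Eng, Flt1 and Kdr take a larger part of the endothelial sum in the KO, and Anpep takes most of the mural sum, so the totals changed less than their makeup.

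Erg and Vwf, the transcription factor and the secreted factor, fell. Vwf, von Willebrand factor, which endothelium stores and releases for clotting, had 57.0, 42.7 and 99.3 normalized counts in the controls, against 24.8, 26.4 and 28.9 in the KO (log2 fold change -1.20 ± 0.38, adjusted p = 0.019). The control libraries varied while the KO libraries lay close together. Erg, an ETS transcription factor that keeps endothelial identity, had 21 to 80 reads in the controls and 11 to 22 in the KO (log2 fold change -1.94 ± 0.65, adjusted p = 0.024). Both calls were lost with quantile normalization (adjusted p = 0.44 for Vwf and 0.18 for Erg) and without control 3 (adjusted p = 0.081 and 0.1), and that of Erg also without the variance trend (adjusted p = 0.07), without control 2 (adjusted p = 0.067) and without KO 2 (adjusted p = 0.063). Vwf is also stored in platelets, and of 7 platelet and megakaryocyte markers tested, 1 rose and 2 fell, with sums between 1215 and 2060 normalized counts in the controls and between 1406 and 2023 in the KO. The part of platelets in the Vwf level was not tested.

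The 2 collagen IV genes of the vascular basement membrane fell. Col4a1 had 419.4, 361.3 and 485.5 normalized counts in the controls, against 162, 212 and 198 in the KO (log2 fold change -1.14 ± 0.18, adjusted p = 0.00027). Col4a2, whose chain assembles with that of Col4a1, had 280.6, 269.1 and 372.0 normalized counts in the controls, against 204, 180.4 and 160 in the KO (log2 fold change -0.75 ± 0.19, adjusted p = 0.0061). For both genes every KO library lay below every control, and only the call of Col4a2 was lost with quantile normalization, where its log2 fold change was -0.25 (adjusted p = 0.3). Per kilobase of transcript the 2 genes were near each other in the controls (63.8 and 47.6 normalized counts per kilobase) and nearer in the KO (28.8 and 28.1).

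The 2 genes lie head to head and are read in opposite directions from a shared start, which is shown because the first bases of their transcripts overlap. By the gene starts of the RefSeq promoter windows on GRCm38.p6, the plus strand at chr8:11312801-11312830 reads, with the 22 overlapping bases of the first exons in capitals and 4 bases on either side:
Col4a1-Col4a2 start: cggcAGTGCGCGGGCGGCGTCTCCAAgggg
Col4a2 starts at base 11312805 on the plus strand, and from its start at base 11312826 Col4a1 runs the other way. The RefSeq gene record of Col4a1 reaches further, to base 11312889, so the overlap is longer by that record. The 22 bases are those shared by the GENCODE vM21 transcripts used here, which are 6615 (Col4a1) and 6450 (Col4a2) bases long.

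The pericyte genes held both extremes of the 32. Pdgfrb, the PDGF-B receptor on which pericytes depend, had 1128, 867.8 and 822.8 normalized counts in the controls, against 80.4, 85.7 and 112.4 in the KO, a 10.1-fold difference of means (log2 fold change -3.33 ± 0.19, adjusted p = 1.9e-07). Rgs5, a regulator of G protein signaling and a pericyte marker, had 542.2, 642.8 and 854.3 normalized counts in the controls, against 108, 72.6 and 284.1 in the KO (log2 fold change -2.34 ± 0.41, adjusted p = 0.00059). Both groups were separate for each of these genes, and both calls held under all 18 alternatives. Vtn, vitronectin, an adhesion protein that brain pericytes secrete, fell less, from 1057, 778.3 and 901.6 normalized counts to 452.7, 659.7 and 589.4 (log2 fold change -0.69 ± 0.17, adjusted p = 0.0044). That fold change dropped below 1.5-fold with quantile normalization (-0.56 on the log2 scale), without control 1 (-0.58) and without KO 1 (-0.54).

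Anpep moved the other way. It encodes aminopeptidase N (CD13), which pericytes carry and which is also a surface protein of myeloid cells, and it lies at chr7:79821803-79848210. Anpep had 153, 318 and 224 normalized counts in the controls, against 1325, 1290 and 2022 in the KO, with the lowest KO library several times above the highest control. The log2 fold change was 2.76 ± 0.26 (adjusted p = 5.9e-06), a 6.67-fold difference of means, and it stayed between 2.44 and 3.03 over 18 alternatives. Anpep made up 7.57% of the summed normalized counts of the 10 mural members in the controls and 58.6% in the KO. Beside it, the mural sum was 3136, 2855 and 3189 normalized counts in the controls, against 2212, 2345 and 3351 in the KO, a ratio of 0.862, so the groups overlapped through KO 3. Without Anpep the log2 of that ratio went from -0.22 to -1.38.

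The remaining pericyte members were not called. Abcc9, the sulfonylurea receptor subunit of the potassium channel of brain pericytes, had 108, 160.3 and 249 normalized counts in the controls, against 92.3, 81.7 and 173 in the KO. The groups overlapped, and the log2 fold change of -0.57 ± 0.36 (adjusted p = 0.19) was 0.11 with quantile normalization. Higd1b, a small protein enriched in pericytes, had between 1 and 13 reads in a library and a log2 fold change of -1.23 ± 0.71 (adjusted p = 0.16).

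Of the 4 smooth muscle contractile and filament genes, 1 fell and 3 were not called. Tagln, transgelin, an actin-binding protein of smooth muscle, had 76.0, 57.1 and 70.9 normalized counts in the controls, against 97.3, 64.7 and 109.4 in the KO. KO 2 lay inside the control range, and the log2 fold change was 0.38 ± 0.29 (adjusted p = 0.28). Acta2, smooth muscle actin, had means of 26.2 ± 15.2 and 53.0 ± 17.9 normalized counts (SD, n = 3 in each) and a log2 fold change of 1.16 ± 0.53 (adjusted p = 0.083). Although every KO library lay above every control for Acta2, control 1 and KO 1 stood nearly level, at 38.0 and 38.7 normalized counts. With quantile normalization both Acta2 and Tagln were called higher (adjusted p = 0.005 and 0.0053), and Acta2 also without control 1 (adjusted p = 0.047). Myh11, the smooth muscle myosin heavy chain, had 5 to 27 reads in a library and a log2 fold change of 0.01 ± 0.50 (adjusted p = 0.99). Des, desmin, the intermediate filament of muscle and pericytes, had 4 to 12 reads in the controls and 0 to 8 in the KO (log2 fold change -2.14 ± 0.76, adjusted p = 0.032). The call of Des was lost in edgeR (adjusted p = 0.084), in DESeq2 (adjusted p = 0.081), with quantile normalization and without control 3, KO 1 or KO 3. Of its transcript, 220 bases overlap Gm15179 on the other strand.

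By level per transcript length, the order of the members changed between the groups. In the controls Vtn was first with 523 normalized counts per kilobase, followed by Mfsd2a with 352 and Cd34 with 308. In the KO Eng was first with 425, Anpep second with 407 and then Vtn with 325. Mfsd2a went to 47.5 normalized counts per kilobase in the KO and Pdgfrb from 173 to 17.1. Des was near the bottom in both groups, with 3.33 and 0.515, and Tie1 had 4.09 and 1.27. Neighbors in this order such as Eng and Anpep in the KO do not differ beyond their spread. Before division by length, the mean over the 3 KO libraries was 1453 ± 392 normalized counts for Eng and 1546 ± 413 for Anpep (SD).

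Promoter windows were available for 23 of the 32 members, as 28 windows of RefSeq sequence around gene starts. The CArG box, the binding motif of SRF in smooth muscle genes, was searched as CCWWWWWWGG, where W is A or T. It was in 0 of the 28 windows and in 1.63% of all 32851 windows. The ETS motif CCGGAAG, searched on both strands, was in 0 and in 8.86%. Variants of either motif were not searched. No match says only that these letters are not in these windows.

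Other vascular genes, 140 in 6 lists by role, were tested beside the members. Of these, 71 fell, 22 rose and 47 were not called. Among all 18413 tested genes, 28.8% were called lower and 22.2% higher, the shares to set beside the counts of each list. The part of other cell types in the levels of the listed genes was not tested. Of 25 other junction and surface genes, 13 fell and 5 rose, with a median log2 fold change of -1.38. The tight junction scaffold Tjp1 had -0.40 and was not called, the junctional adhesion molecule Jam2 fell by 3.13 and the adhesion molecule Mcam fell by 2.92, and F11r, a relative of Jam2, rose by 1.42. Ly6a, the stem cell antigen Sca-1, rose by 3.21 and Cd93, a lectin-like receptor of endothelium and myeloid cells, by 2.38.

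Of 17 other endothelial transporters, 9 fell and 3 rose (median -0.92). Slc2a1, the glucose transporter GLUT1 of the barrier, fell by 0.77 on the log2 scale, from a mean of 5541 to 3248 normalized counts. The thyroid hormone transporter Slco1c1 fell by 2.67 and the reelin receptor Lrp8 by 3.33. The taurine transporter Slc6a6 rose from a mean of 4016 to 11970 normalized counts (adjusted p = 7.5e-08), the efflux pump Abcg2 rose by 1.58 on the log2 scale and the organic anion transporter Slco2b1 by 1.98, while Slc3a2, the heavy chain of amino acid transporters, had 0.15 and was not called.

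Of 17 other endothelial transcription factors tested, 7 fell and 4 rose (median -1.28), and 1 more, Nkx2-3, was at 0 in every library. Epas1, the hypoxia factor HIF-2 alpha, had a log2 fold change of -3.55, the Notch target Hey1 -3.72 and Sox7 -3.58, all called lower. Fli1, an ETS factor of endothelium and blood cells, rose by 1.92, and the shear-responsive factors Klf2 and Klf4 rose from means of 586 and 1451 to 1767 and 4121 normalized counts. In the controls Epas1 and Hey1 had means of 15030 and 4505 normalized counts, beside 92.8 for Cldn5 and 61.2 for Erg. Epas1 alone made up 60.5% of the sum of this list in the controls. The part of astrocytes, microglia and other cells in the levels of these factors was not tested.

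Of 29 vascular growth factors and receptors, 15 fell and 6 rose (median -1.18). Apln, the peptide apelin of endothelial tip cells, fell by 3.65 on the log2 scale and Figf, the lymphatic growth factor VEGF-D, by 3.94. Acvrl1, the receptor partner of endoglin, rose by 2.36, Tgfbr2 by 1.90, and the VEGF and semaphorin co-receptors Nrp1 and Nrp2 by 1.43 and 1.85, while Bmpr2 had 0.36 and was not called. Eng and Acvrl1 were thus both higher in the KO, Acvrl1 from 118, 106 and 186 to 851.8, 668.3 and 565.1 normalized counts.

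Of 20 other basement membrane genes, 12 fell and 2 rose (median -0.89). Lama5, a laminin chain of the vessel wall, had a log2 fold change of -4.45, the collagen chaperone Serpinh1 -4.02, the laminin receptor Dag1 of astrocyte endfeet -2.08 and the matrix protein Sparc, which astrocytes also make, -0.80, all called lower. The integrin Itgb1 rose by 1.10 and Col15a1 by 1.44, and Itga6 had 0.57 and was not called.

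Of 32 other mural genes tested, 15 fell and 2 rose (median -0.85). Notch3, the Notch receptor of mural cells, stood at 2103, 2050 and 1529 normalized counts in the controls and at 43.7, 56.4 and 60.8 in the KO (log2 fold change -5.12 ± 0.19, adjusted p = 1.5e-08). Foxs1 fell by 4.56, the actin-binding caldesmon gene Cald1 by 3.03 and the guanylate cyclase subunit Gucy1a3 by 2.52 on the log2 scale. P2ry14, a receptor for UDP-glucose, rose by 3.45 and Filip1l by 1.30.

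**Figure D4:**
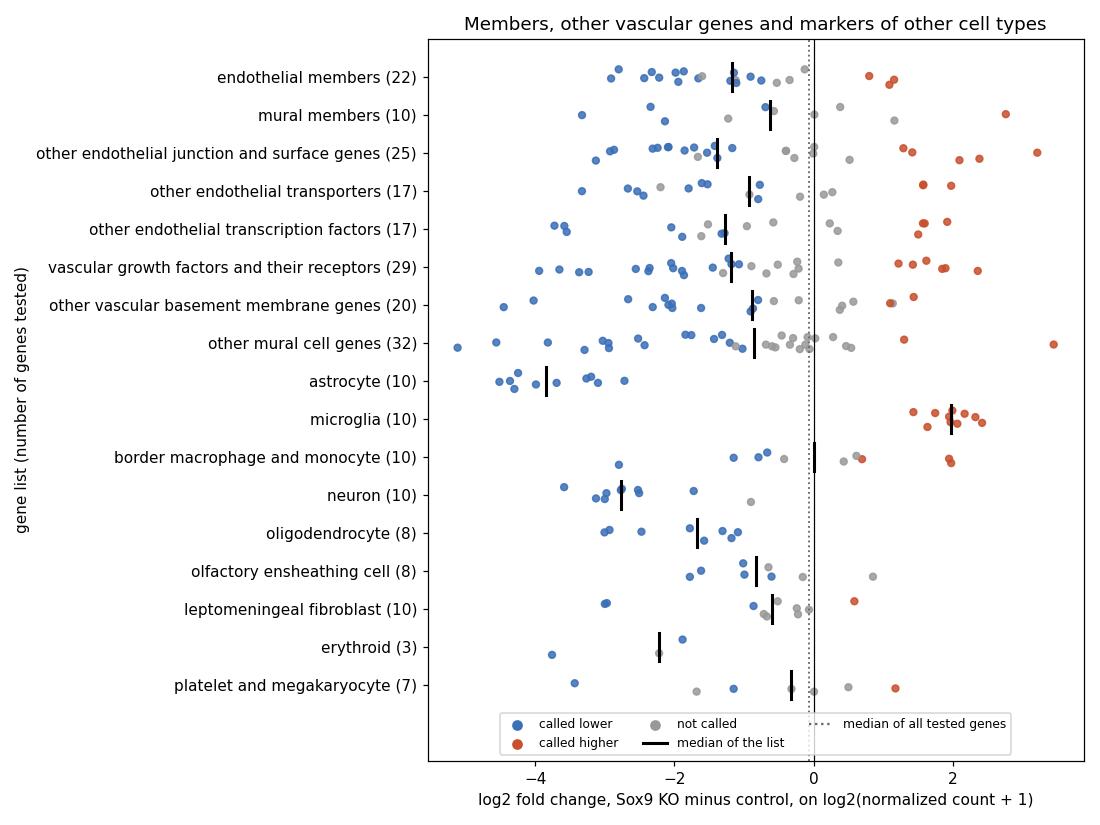
Log2 fold change (KO minus control, on log2(normalized count + 1)) of every tested gene in the member groups, in 6 lists of other vascular genes and in 9 lists of markers of other cell types, with black bars at list medians. The vascular lists hold both called higher and called lower genes, while all 10 astrocyte markers lie to the left and all 10 microglial markers to the right.

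Markers of the other cells that could accompany vessels moved in their own ways. Of 10 leptomeningeal fibroblast markers, 3 fell and 1 rose, and their sum lay between 6614 and 7552 normalized counts in the controls and between 2320 and 2415 in the KO. Islr, which made up 68.4% of that sum in the controls, fell by 2.97 on the log2 scale, while Dcn and Col1a2 had -0.67 and -0.24 and were not called. Of 7 erythroid markers, the 4 globin genes Hba-a1, Hba-a2, Hbb-bs and Hbb-bt were at 0 in every library, and the sum of the others lay between 96.2 and 510.6 normalized counts in the controls, highest in control 2, and between 22.8 and 51.6 in the KO. Slc1a2, the glutamate transporter that is the most abundant astrocyte marker here, had a log2 fold change of -4.30, beside -3.33 for Pdgfrb and -2.91 for Mfsd2a. The part of any of these cells in the levels of the members was not tested.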

How the data were processed

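RNA-seq libraries were made by the authors from TurboRFP-positive cells of 6 OBs, from 10 ng of total RNA with the Trio RNA-Seq kit. Per the labels and the study's methods, the authors aligned reads to the mm10 mouse genome (STAR 2.5.0a), made gene counts (GenomicAlignments) and scaled them (DESeq2 1.20.0). Gene annotation and strand setting: not given in the sources used here. All deposited signal values are named RPM, but each is a read count over the size factor of its library: in 5 libraries every value came out as a whole number of reads (tolerance 0.01 read), and in KO 1, whose step is near 1, the full digits show it. They are called normalized counts. Each table lists 24421 symbols, 27 of which are spreadsheet dates and were left as they are. Depth ran from 18242129 to 86906527 recovered reads, and 1 read is the smallest step a library can show. No value column was left unused.

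The 3 KO libraries were compared with the 3 controls on log2(normalized count + 1) by limma 3.58.1 in R 4.3.3 (variance trend), for 18413 genes with a mean of at least 1. P-values are two-sided and Benjamini-Hochberg adjusted over all of them. A call needs 1.5-fold and an adjusted p under 0.05, the study's thresholds; whether its p was adjusted is not stated. A design written for normalized values was kept, and recovered reads were tested with edgeR 4.0.16 and DESeq2 1.42.0 as alternatives. Other pseudocounts, filters, scalings, variance models, thresholds, a replicate block and leaving out each library were also run. The steps were tested on simulated counts.

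The members and lists were chosen with earlier results of these data known. Values in every library were given for members with a mean of at least 100, members called higher and the highest member of each role; of the other lists, at most the 4 highest genes and the 2 largest called changes in each direction were named, and paralogs were named for shared reads. A gene within this rule is not reported here. Transcript lengths are those of the longest coding transcript in GENCODE vM21. Coordinates and promoter windows are from RefSeq on GRCm38.p6, the patched form of mm10. Older symbols in the tables (Figf, Gucy1a3) were kept. Per the study's methods, cells were not re-run on the sorter to check purity, which was judged from cell-type markers in the RNA-seq. The 3 libraries a group limit every test.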

Additional observations from a re-analysis of the deposited data

How the results depend on the processing

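Up to 18 alternatives were run per member. The pseudocounts, the absence of a filter and array weights ended no member's call, and edgeR and DESeq2 ended that of Des only. A minimum mean of 10 left 30 members tested, without Des and Higd1b, and so 3 mural members were lower. Scaling mattered most. With quantile normalization 9 endothelial members were lower, and 3 mural members were higher and 2 lower. With every library scaled to the same total, with or without Rn45s, 1 endothelial member (Eng) was called higher. Over all genes, 2630 were higher with the same total without Rn45s, and 2514 at 2-fold, against 4090. Leaving out each library in turn gave 2 to 3 endothelial members higher and 10 to 16 lower, and 1 to 2 mural members higher (2 without control 1) and 2 to 4 lower (2 without KO 1). The log2 ratio of the endothelial sums was -0.40, -0.65 with the same total and -0.73 without Eng, and that of the mural sums -0.22, and -1.38 without Anpep. Values that were not called changed sign: with quantile normalization Pecam1 to 0.072, Icam2 to 0.67 and Abcc9 to 0.113, and Myh11 to -0.21 with the same total and -0.29 also without Rn45s. With 1 library left out, Icam2 ran from -0.37 to 0.14 and Myh11 from -0.24 to 0.25. The causes were not tested.

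Same-numbered libraries did not deviate together over the tested genes: their deviations from the group means correlated at -0.05, -0.01 and -0.01. Whether the samples were paired in their handling was not tested. With the replicate block 4048 genes were higher and 5227 lower, and no member's call changed. Des, Higd1b, Myh11 and Tie1 had the fewest reads of the members, and whether depth limits their calls was not tested.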
